A study of Mus musculus and Rattus norvegicus with 37 samples.

Results

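Sulfotransferases (Sult), UDP-glucuronosyltransferases (Ugt) and glutathione transferases (Gst) are the main conjugating enzyme families of the liver. All genes whose symbol opened with Sult, Ugt or Gst followed by a digit or a lower-case letter were taken from the 4 deposited tables of normalized counts, and a gene was kept in a table where its mean over the livers was at least 10. This left 84 genes, 56 of 74 matching names in mice and 28 of 40 in rats, of 76656 gene names in the series (47995 in mice and 28661 in rats). The symbols, not the measured differences, chose them.

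RNA-seq was performed on 37 livers, 21 from female mice and 16 from male rats, all taken in the fed state per the methods. WT/Floxed mice received LNA29 (n = 8) or saline (n = 5). LNA29 is a pair of locked nucleic acid inhibitors, against miR-29a and against miR-29b and miR-29c, each injected once under the skin at 20 mg/kg, and livers were taken on day 7. The LNA29 group pooled 4 WT C57BL/6J mice with 4 floxed mice, and the saline group pooled 3 WT with 2 floxed mice, after the authors had removed 1 further floxed saline mouse as an outlier. The methods give 9 to 11 weeks of age for C57BL/6J mice and 15 to 20 weeks for the floxed littermates, so background and age cannot be told apart, and the mouse work was done at several institutions that the labels do not separate. Mice labelled L-Sirt1 KO, with a liver-specific deletion of Sirt1 on the same background and of the same age as their floxed littermates, received LNA29 (n = 4) or saline (n = 4). No scrambled LNA was sequenced, so that all LNA29 comparisons are against saline. Zucker Fatty rats (ZFR, fa/fa, which lack a working leptin receptor) were compared with Zucker Lean rats (ZLR) at 5.5 months (n = 4 each). ZFR aged 3 months were given BT2, an inhibitor of the kinase that turns off branched-chain keto acid dehydrogenase, at 20 mg/kg per day for 1 week, or its dimethylsulfoxide vehicle (n = 4 each).

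All 3 families attach a polar group to a lipophilic molecule so that it can leave the cell in bile or urine. Sulfotransferases use the activated sulfate donor PAPS and act on steroids, bile acids, thyroid hormone and phenols in the cytosol, glucuronosyltransferases use UDP-glucuronate in the endoplasmic reticulum and clear bilirubin, steroids and many drugs, and glutathione transferases couple glutathione to electrophiles such as lipid peroxidation products. Many of these genes are known for a strong sex difference in rodent liver and for induction through the receptors CAR, PXR and AHR and the factor NRF2. The question put to the data was which of these genes differed with miR-29 inhibition, with the KO label, with obesity and with BT2.

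The reagent targets 3 mature miRNAs, shown with the seed (bases 2 to 8) in capitals because a seed match is the link between the reagent and an mRNA. The sequences are from RefSeq (GRCm38.p6). The 3 share 1 seed.
mmu-miR-29a-3p: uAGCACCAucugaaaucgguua
mmu-miR-29b-3p: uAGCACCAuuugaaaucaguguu
mmu-miR-29c-3p: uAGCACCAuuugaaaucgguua
A match to this seed, TGGTGCT, was searched in the annotated 3′ UTRs of the mouse genes. Of 53 family members with a 3′ UTR, 1 held it, which is 1.89%, against 15.4% of 13478 genes tested in the mouse tables. The 3′ UTRs of the members were also shorter, with a median of 480 bases against 1154.5, and the part of length in the lower share was not tested. The match lay in Gstz1, the enzyme that converts maleylacetoacetate in tyrosine breakdown (12:87147165-87164723 on the plus strand of GRCm38), at base 184 of an 893-base 3′ UTR.
Gstz1 site: gtaaggcagtcaTGGTGCTggagaggtagc
The capitals mark the match. Gstz1 normalized counts were 38418 ± 1620 (SD, n = 5) with saline and 33337 ± 2911 (SD, n = 8) with LNA29 in WT/Floxed livers, a log2 difference of -0.21 with adjusted p = 0.177 (limma), and the fold change stayed under the limit for a call, given below. Gstz1 is named because it holds the match, and was chosen after its values were seen. None of the mouse members described as changed below held a match, and Sult3a2 had no annotated 3′ UTR to search.

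Values below are normalized counts, gene counts estimated by Salmon and divided by a size factor, with each table scaled separately. Comparisons are log2 differences of normalized count + 1, tested with limma over all genes of a table with a mean of at least 10 and adjusted by the Benjamini-Hochberg method. A mouse gene was called if its p-value was under 0.05, its adjusted p-value under 0.2, its mean above 50 and its fold change above 1.2, and a rat gene if its adjusted p-value was under 0.05. The labels do not say whether the livers of a group come from separate litters or cages, and p-values measure only the spread between these samples. Estimated depth was 42.6 to 78.0 M reads in mice and 0.188 to 58.5 M in rats, and the 3 families held 0.927% to 1.30% of mouse counts and 0.837% to 1.11% of rat counts. In the rat table of ZFR and ZLR, 1 read was worth 0.0322 to 10.5 normalized counts. Libraries ZLR 3 and ZLR 4 stand apart with 0.188 and 0.189 M estimated reads, against 56.4 and 46.1 M in ZLR 1 and ZLR 2 and 58.5, 1.56, 0.952 and 1.24 M in ZFR 1 to ZFR 4, so the called members of that table are also given without them. In the BT2 table, library 4 of the vehicle group held 0.193 M reads.

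Hepatocyte markers identified the tissue: their summed normalized count was 4658510 to 7778300 in WT/Floxed livers, and Alb was the most abundant. Gene-level Sirt1 did not separate the labelled genotypes. Normalized Sirt1 counts were 492.7 to 699 in the 5 saline and 510 to 688 in the 8 LNA29 WT/Floxed livers. In mice labelled L-Sirt1 KO they were 553, 607, 617 and 567.95 with saline and 551, 567, 595 and 535 with LNA29. The levels overlap, across tables scaled separately. A gene-level count sums all exons, so that it does not check a deletion of part of the gene. The study also measured Sirt1 by RT-qPCR, which is not analysed here. In bulk liver, fewer cells of a type and less RNA per cell cannot be told apart.

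In saline-treated WT/Floxed livers the most abundant members per kb of exon were known hepatocyte enzymes. In the Gst family, Gstm1 led with 63650 ± 4557 (SD, n = 5) normalized counts per kb, followed by Gsta3 with 21746 ± 1585. In the Ugt family, Ugt2b5 with 24446 ± 1114 and Ugt1a1, the bilirubin-conjugating enzyme, with 24293 ± 2115 did not differ beyond their spread. In the Sult family, Sult1a1, the phenol sulfotransferase, had 16033 ± 839, and Sult2a2, a hydroxysteroid sulfotransferase, had 12964 ± 8317, a spread that overlaps with that of Sult1a1. None of these 6 genes was called for LNA29 in either mouse table. Their log2 differences in WT/Floxed mice were 0.12 for Gstm1, -0.08 for Gsta3, 0.12 for Ugt2b5, -0.18 for Ugt1a1, -0.34 for Sult1a1 and -0.90 for Sult2a2. In the mice labelled L-Sirt1 KO they were -0.07, 0.27, 0.03, 0.00, -0.10 and 0.28 in the same order. With floxed mice alone, Sult1a1 (-0.50, adjusted p = 0.133, limma) and Sult2a2 (-2.16, adjusted p = 0.0653, limma) were called lower, where 5.35% of all genes were called.

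In WT/Floxed mice LNA29 lowered 11 of the 56 members tested and raised 1. The 11 were 3 sulfotransferases (Sult3a2, Sult5a1, Sult3a1), 1 glucuronosyltransferase (Ugt1a5) and 7 glutathione transferases (Gsta1, Gsta2, Gstt3, Gstt2, Gstm2, Gstm6, Gsta4), with log2 differences from -1.88 to -0.36, and Ugt1a9 was the 1 that rose, by 0.43. Among all 15811 genes tested, 1.93% were called lower and 2.42% higher. The median log2 difference of the members was -0.19, against 0.00 over all genes. By family, 14 of 14 Sult genes, 9 of 18 Ugt genes and 18 of 24 Gst genes lay below 0, with medians of -0.65, -0.00 and -0.17. Of these 14, Sult1e1 had a saline mean under 10 and passed the minimum mean of 10 only through the LNA29 livers. Its place in the count is given as a description. The Sult count was not the same in both backgrounds: with WT mice alone 9 of 14 lay below 0, with a median of -0.20, and with floxed mice alone 13 of 13, with a median of -0.90. These fits on fewer mice were not compared by a test. The plot of all members in the 4 comparisons shows these family differences.

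**Figure D1:**
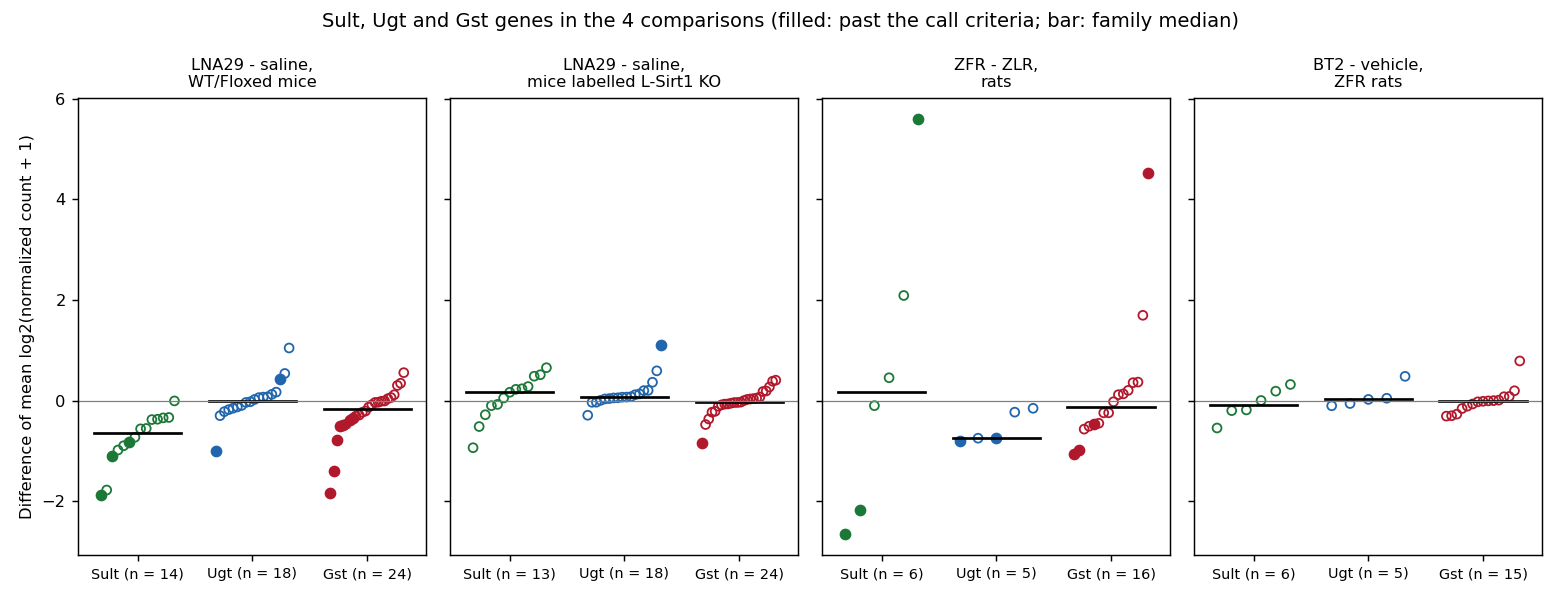
Difference of mean log2(normalized count + 1) of every tested Sult, Ugt and Gst gene in the 4 comparisons, 1 point per gene, filled where the gene passed the call criteria and with a bar at the family median. In WT/Floxed mice all 14 Sult genes lie below 0 (9 of 14 with WT mice alone), among them Sult1e1, which passed the minimum mean only through the LNA29 livers. In ZFR 2 genes, Sult4a1 and Gstm3, stand far above the others at 5.60 and 4.52, or at 2.87 and 2.31 with 10 added in place of 1.

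Sult3a2 and Sult3a1 are neighbouring genes of the amine N-sulfotransferase type on mouse chromosome 10 (10:33766424-33786704, minus strand, and 10:33857721-33879532, plus strand). Sult3a2 stood at 309, 560, 302, 368 and 409 normalized counts in the 5 saline livers and at 55.0 to 193, with a median of 107, in the 8 LNA29 livers. The highest LNA29 liver lay below the lowest saline liver. The log2 difference was -1.88 ± 0.25 (SE), adjusted p = 0.00142 (limma). Sult3a1 counts were 7167, 9953, 6774, 7596 and 7027 with saline and 3502 to 5666, with a median of 4265, with LNA29. Its groups did not overlap either, and the log2 difference was -0.82 ± 0.12 (SE), adjusted p = 0.00389 (limma). No stretch of 100 bases was shared between Sult3a1 or Sult3a2 and any other annotated transcript, which bears on how reads could be split between copies.

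Sult5a1, a sulfotransferase on chromosome 8 with little described function, was at 999, 701, 1063, 1131 and 554 with saline and at 187 to 532, with a median of 460, with LNA29. The groups did not overlap, with a log2 difference of -1.10 ± 0.25 (SE), adjusted p = 0.0472 (limma). Over the 56 members, 4 had groups that did not overlap (these 3 and Ugt1a5), against 1.51% of all genes.

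The Ugt1a locus (mouse chromosome 1) makes a series of enzymes that each start at a first exon of their own and share the remaining exons, so that 50.4% to 77.4% of the 100-base windows of these transcripts occur in another annotated gene. Only the unshared part tells them apart, and the division of reads between them is uncertain (Ugt1a5 63.1% and Ugt1a9 58.5%). Within that limit, Ugt1a5 and Ugt1a9 moved in opposite directions. Ugt1a5 normalized counts were 18850, 13731, 16797, 15343 and 12674 with saline and 4819 to 12514, with a median of 7529, with LNA29. The highest LNA29 liver lay just below the lowest saline liver, and the log2 difference was -1.005 ± 0.20 (SE), adjusted p = 0.0214 (limma). Ugt1a9 was at 10167, 12381, 8932, 11978 and 10431 with saline and at 12059 to 17229, with a median of 13928, with LNA29. The LNA29 livers were mostly the higher ones, but the lowest of them lay below the highest saline liver, at 12381. The log2 difference of Ugt1a9 was 0.43 ± 0.11 (SE), adjusted p = 0.0639 (limma). The other Ugt1a genes (Ugt1a1, Ugt1a6a, Ugt1a6b, Ugt1a7c, Ugt1a10) were not called, with log2 differences between -0.22 and 0.07.

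Because these Ugt1a genes have separate start sites, the promoters of Ugt1a5 and Ugt1a9 are shown from RefSeq (GRCm38.p6, 250 bases before to 50 after the start, 5′ to 3′ on the plus strand). Capitals mark matches, on either strand, to the GAS letters TTCNNNGAA, the ARE letters TGACNNNGC, the XRE core GCGTG or the TATA letters TATAAA.
Ugt1a5 promoter at chr1:88165762-88166061: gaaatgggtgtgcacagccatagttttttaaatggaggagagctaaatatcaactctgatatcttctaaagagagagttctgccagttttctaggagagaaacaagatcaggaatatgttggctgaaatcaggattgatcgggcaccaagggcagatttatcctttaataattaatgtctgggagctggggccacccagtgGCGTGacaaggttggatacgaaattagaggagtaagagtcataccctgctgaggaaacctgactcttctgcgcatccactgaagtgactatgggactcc
Ugt1a9 promoter at chr1:88070529-88070828: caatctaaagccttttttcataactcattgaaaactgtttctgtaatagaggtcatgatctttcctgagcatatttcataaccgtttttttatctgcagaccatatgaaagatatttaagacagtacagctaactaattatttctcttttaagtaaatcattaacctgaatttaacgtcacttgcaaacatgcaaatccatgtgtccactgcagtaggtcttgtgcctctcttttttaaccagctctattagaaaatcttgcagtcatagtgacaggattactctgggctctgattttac
Aligned end to end, the pair had 173 of 300 bases identical (57.7%). Ugt1a5 held GCGTG and Ugt1a9 none of the 4 motifs. Over all 32851 promoters of this length, 8.30% held TTCNNNGAA, 12.4% TGACNNNGC, 32.4% GCGTG and 13.6% TATAAA. Of the 58 promoters listed for 47 of the 56 mouse members, 6.90%, 5.17%, 20.7% and 17.2% did. A match describes letters in the window and no more.

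The alpha-class genes Gsta1 and Gsta2 lie close together on chromosome 9 (9:78230656-78242684, plus strand, and 9:78331018-78355788, minus strand) and are known for induction through NRF2 and AHR. Gsta2 counts were 3040, 2379, 2228, 3106 and 2525 with saline and 515 to 2449, with a median of 848, with LNA29. In 6 of the 8 LNA29 livers Gsta2 was at 1205 or less, and the other 2, both WT, were at 2027 and 2449, the latter within the saline range. The log2 difference was -1.40 ± 0.33 (SE), adjusted p = 0.0486 (limma). Gsta1 counts were 127, 133, 346, 220 and 226 with saline and 16.03 to 143, with a median of 46.7, with LNA29, a log2 difference of -1.84 ± 0.49 (SE), adjusted p = 0.0924 (limma). The groups overlapped. Gsta1 shared 80.6% of its 100-base windows with other genes, most with Gm3776, and Gsta2 28.4%, so that the Gsta1 value is uncertain.
Gsta1 promoter at chr9:78230419-78230718, plus strand: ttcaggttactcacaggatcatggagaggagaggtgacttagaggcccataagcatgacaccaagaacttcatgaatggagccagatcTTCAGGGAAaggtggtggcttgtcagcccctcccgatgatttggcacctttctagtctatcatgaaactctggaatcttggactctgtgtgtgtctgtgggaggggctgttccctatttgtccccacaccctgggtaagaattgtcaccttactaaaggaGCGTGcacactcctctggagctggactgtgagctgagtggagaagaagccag
Gsta2 promoter at chr9:78347096-78347395, minus strand: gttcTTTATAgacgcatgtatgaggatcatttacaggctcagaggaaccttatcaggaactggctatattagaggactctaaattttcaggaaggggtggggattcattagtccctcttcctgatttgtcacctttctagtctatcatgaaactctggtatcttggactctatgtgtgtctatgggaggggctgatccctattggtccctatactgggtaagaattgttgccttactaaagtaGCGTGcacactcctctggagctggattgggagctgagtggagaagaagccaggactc
These promoters, printed because both genes moved together, had 238 of 300 bases identical (79.3%) when aligned end to end. The capitals are as above: both held GCGTG, Gsta1 also TTCNNNGAA, and Gsta2 also TATAAA, read on the opposite strand.

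The theta-class genes Gstt3 and Gstt2 are neighbours of Gstt1 on chromosome 10. Gstt3 counts were 9883, 6732, 8099, 9724 and 6545 with saline and 3234 to 7494, with a median of 4397, with LNA29, so that the groups overlapped, with a log2 difference of -0.79 ± 0.18 (SE), adjusted p = 0.0476 (limma). Gstt2 counts were 3722, 3493, 2346, 3426 and 3668 with saline and 2012 to 2652, with a median of 2238, with LNA29, a log2 difference of -0.51 ± 0.11 (SE), adjusted p = 0.0386 (limma). For Gstt2, 4 of the 5 saline livers lay above every LNA29 liver and saline liver 3 lay among them. Gstt1 was not called, at a log2 difference of -0.23 and adjusted p = 0.212 (limma).

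The calls of the remaining 3 genes depended on single libraries. Gstm2 and Gstm6, mu-class enzymes of a cluster on chromosome 3, differed by -0.48 ± 0.15 (SE) and -0.39 ± 0.12 (SE), each with adjusted p = 0.151 (limma). Gsta4, the enzyme for 4-hydroxynonenal, a product of lipid peroxidation, differed by -0.36 ± 0.11 (SE), adjusted p = 0.166 (limma). In the 13 fits that each left out 1 liver, Gstm2 was called in 6, Gstm6 in 4 and Gsta4 in 3, whereas Gsta1 was called in 12 and the other 8 genes in all 13. Of the other Gstm genes, Gstm7, Gstm4, Gstm1, Gstm5 and Gstm3 had log2 differences of -0.04, -0.03, 0.12, 0.06 and -0.29 and were not called.

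**Figure D2:**
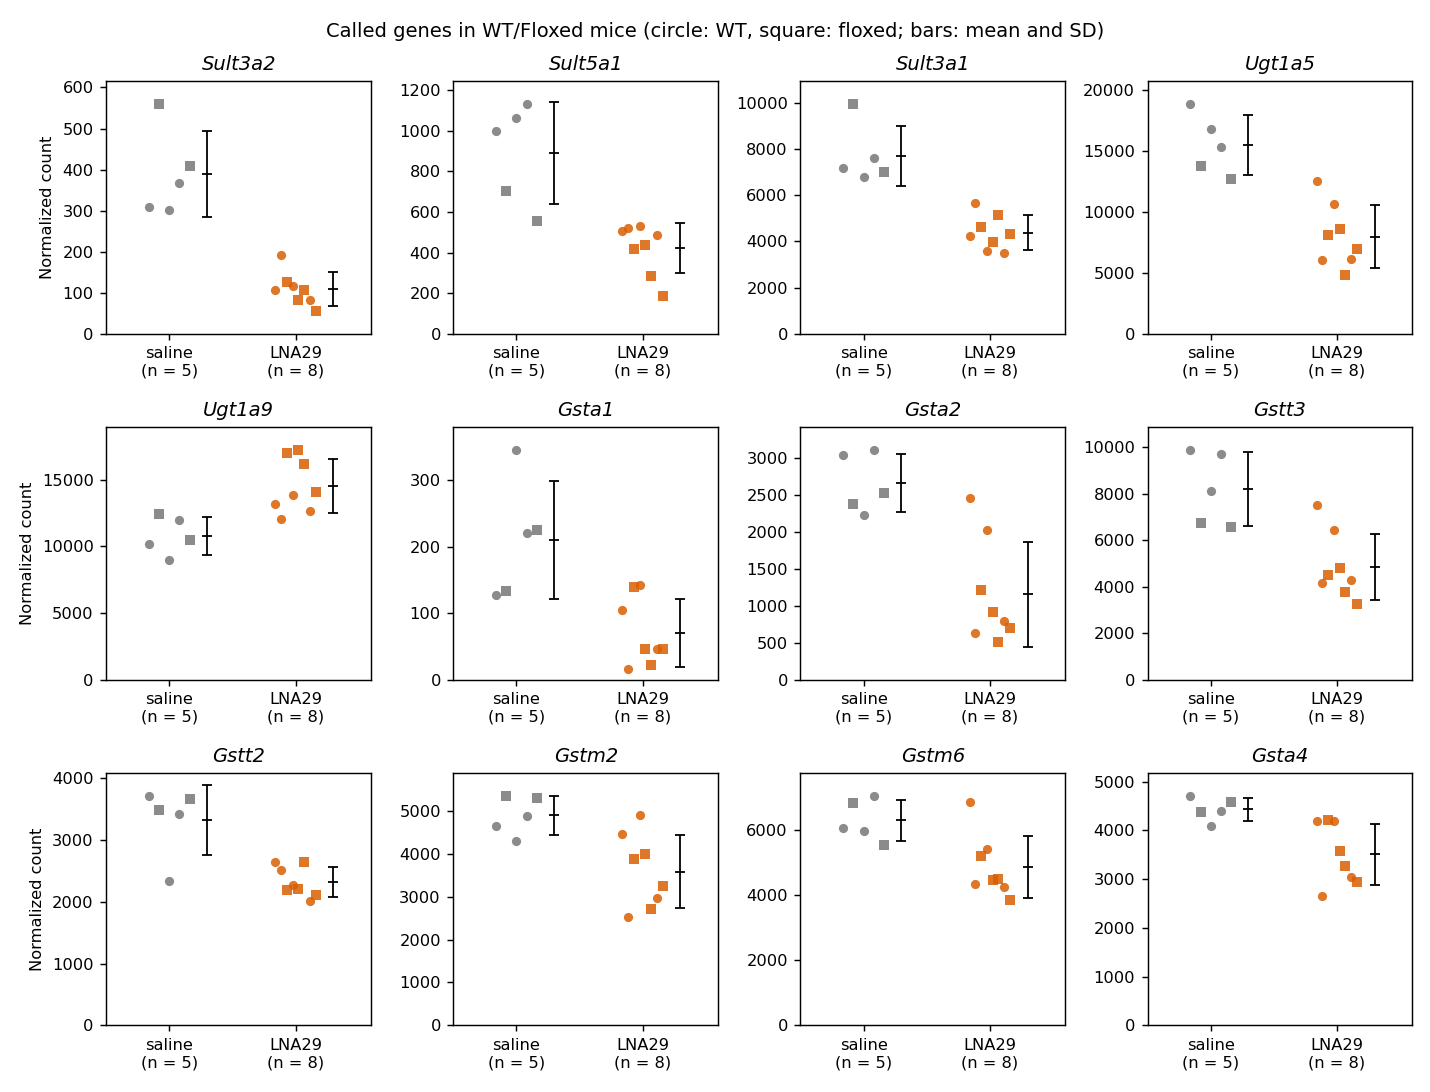
Normalized counts of the 12 called genes in each WT/Floxed liver, saline (grey, n = 5) and LNA29 (orange, n = 8), with circles for WT, squares for floxed mice and bars for mean and SD. Sult3a2, Sult5a1, Sult3a1 and Ugt1a5 show no overlap between the groups, and Ugt1a9 alone is higher with LNA29.

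All 12 genes kept their direction within the WT mice (4 LNA29, 3 saline) and within the floxed mice (4 LNA29, 2 saline). Within WT mice the log2 differences were -1.44 for Sult3a2, -1.06 for Sult5a1, -1.01 for Ugt1a5 and 0.33 for Ugt1a9, and within floxed mice they were -2.42, -0.99, -0.92 and 0.50. With WT mice alone 3 genes stayed called (Sult3a2, Sult3a1 and Sult5a1), where 0.555% of all genes were called. With floxed mice alone, where 5.35% of all genes were called, 8 of the 12 stayed called and 13 members were called in all, the 4 lost being Sult5a1, Gsta1, Gsta4 and Gstm6. The groups are smaller in both fits. Each of the 3 flow cells held both groups. On 2 of them all 12 genes had the direction of the pooled value, and on the third, which held 1 saline liver (saline 3), 11 did, Gstt2 being level there at 0.01.

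The members that did not pass the test included some with large mean differences. The uncalled genes with the largest log2 difference of their families were Sult2a3 (-1.78, adjusted p = 0.549, limma), Ugt8a (1.04, adjusted p = 0.187, mean under 50, limma) and Gstp2 (0.55, adjusted p = 0.255, limma). Ugt8a, which makes galactosylceramide rather than glucuronides, stood at 9.28 ± 5.79 (SD, n = 5) with saline and 17.8 ± 4.61 (SD, n = 8) with LNA29. It passed the minimum mean of 10 only through the LNA29 livers, where it is higher, so that its test is given as a description. The Sult2a cluster on chromosome 7, where Sult2a2 shared 34.6% of its 100-base windows with other genes, which holds hydroxysteroid and bile acid sulfotransferases, is described here after its values were seen. Sult2a1 ranged from 1682 to 17254 among the 5 saline livers and from 697 to 24508 among the 8 LNA29 livers. Sult2a3 ranged from 19.9 to 969 and from 8.56 to 516. In both, and in Sult2a2 and Sult2a5, the 4 floxed LNA29 livers were the lowest of the 13, as the plot of the Sult2a genes shows. Sult2a1 in those 4 was at 711, 745, 697 and 1297, against 3144 and 6565 in the 2 floxed saline livers and 4899 to 24508 in the 4 WT LNA29 livers. For Sult2a1, Sult2a2 and Sult2a5 the direction was not the same in both backgrounds: the log2 differences were 0.59, 0.46 and 0.78 with WT mice alone, none called, and -2.45, -2.16 and -2.07 with floxed mice alone, all called. The backgrounds were not compared by a test. Sult2a3 kept its direction, at -0.21 with WT mice alone and -3.23 with floxed mice alone (adjusted p = 0.0256, limma), and was called in neither. Sult2a8 varied less, from 23066 to 41944 with saline and 19399 to 33896 with LNA29, with a log2 difference of -0.38 and adjusted p = 0.345 (limma).

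**Figure D3:**
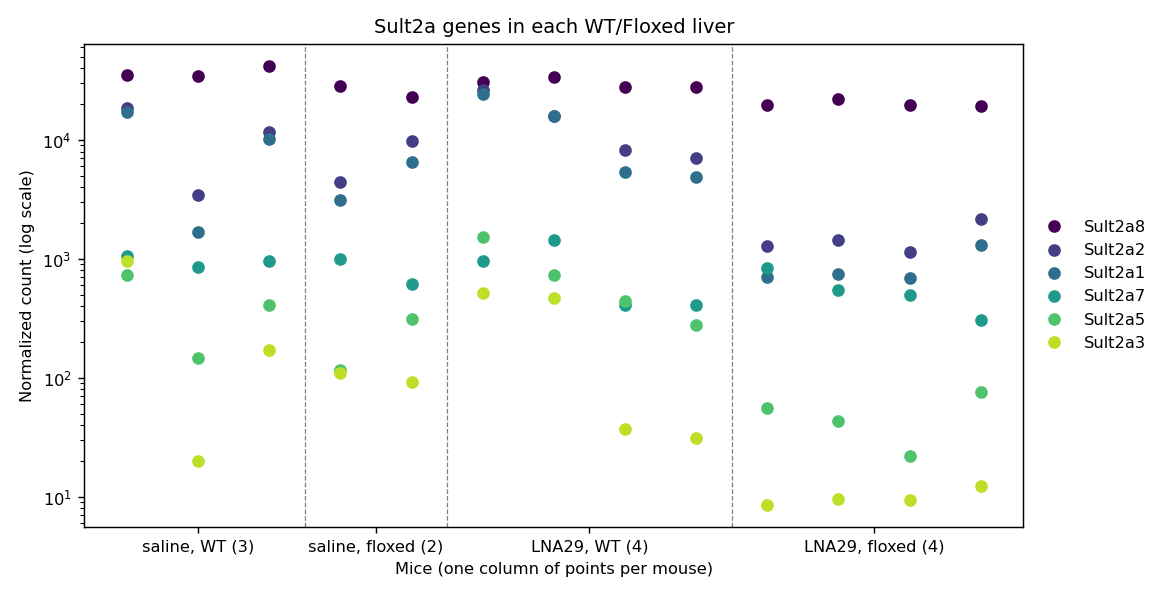
Normalized counts (log scale) of 6 Sult2a genes in each of the 13 WT/Floxed livers, ordered by treatment and background, 1 column of points per liver. Sult2a1, Sult2a2, Sult2a3 and Sult2a5 are lowest in the 4 floxed livers with LNA29, and Sult2a8 is within 19399 to 41944 in all 13.

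None of 10 genes of PAPS and sulfate supply was called in WT/Floxed mice, with a median log2 difference of -0.08. Of 8 genes of UDP-glucuronate supply 1 was lower, the nucleotide sugar transporter Slc35d2 (-0.28, adjusted p = 0.125, limma). Of 13 genes of glutathione supply and turnover 2 were higher, the glutathione-degrading Chac1 (0.98) and glutathione synthetase Gss (0.51), and 1 was lower, Ggt6 (-0.90, adjusted p = 0.0193, limma). Of 7 microsomal and other glutathione transferases outside the symbol pattern, Mgst1 was lower (-0.29). Of 12 other conjugating enzymes the methyltransferases Gnmt (-0.39) and As3mt (-0.29) were lower and the epoxide hydrolase Ephx1 higher (0.51). Of 10 transporters of conjugates and bile acids, the uptake carriers Slc10a1 (-0.30) and Slco1a4 (-0.38) were lower. These shares stand beside 1.93% lower and 2.42% higher over all genes, and the lists were chosen with earlier results known.

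None of 19 regulators (nuclear receptors and liver factors) and none of 10 NRF2 readout genes was called. Of 11 readout genes of CAR, PXR and AHR, 2 were higher, Ephx1 and Cyp3a11 (0.36), and none lower. Of 15 female-biased liver genes 2 were lower, Cyp2g1 (-2.05, adjusted p = 0.00632, limma) and Cyp3a44 (-1.63, adjusted p = 0.0214, limma), with a median of -0.40. Of 12 male-biased genes 3 were higher, Serpina1e (1.56), Cyp2d9 (0.81) and Mup20 (0.59), and 1 was lower, Mup3 (-0.40), with a median of 0.26.

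Markers of other cells were looked at beside these results. In WT/Floxed mice none of 8 macrophage, 8 stellate cell, 8 cholangiocyte, 6 red blood cell, 6 pancreatic acinar and 3 kidney or intestine markers tested was called, and 1 of 8 endothelial markers was lower, Lyve1 (-0.51). Their most abundant genes were Clec4f, Dcn, Spp1, Hbb-bs, Cela1, Fabp2 and, for endothelium, Clec4g. The macrophage list had a median log2 difference of -0.53, with a summed count of 7517 to 39491 with LNA29 and 13799 to 24256 with saline. The acinar list had a median of -1.41, with a summed count of 566 to 1261 with LNA29 and 778 to 2136 with saline. Of 7 hepatocyte markers Apoa1 was higher (0.51) and Tat lower (-0.48). Among hepatocyte zones, 3 of 10 periportal markers were lower, among them Gls2 (-0.67) and Hal (-0.38), with a median of -0.35 and a summed count of 390883 to 572146 with LNA29 and 415378 to 592179 with saline, led by Ass1. Of 10 pericentral markers 1 was lower (Rgn, -0.38). The part of these markers in the Sult and Gst differences was not tested.

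In mice labelled L-Sirt1 KO, LNA29 raised Ugt1a9 and lowered Gstt2, and the other 53 of 55 members were not called. Among all 15885 genes tested, 1.19% were called higher and 0.68% lower. The 2 genes are the only members called in both mouse tables, with the same direction in both. Ugt1a9 counts were 2161, 2591, 2703 and 1977 with saline and 6564, 4710, 6370 and 3306 with LNA29. The lowest LNA29 liver lay above the highest saline liver, with a log2 difference of 1.11 ± 0.21 (SE), adjusted p = 0.0814 (limma). Gstt2 counts were 4028, 4173, 6111 and 4356 with saline and 2754, 2595, 1888 and 3180 with LNA29. The groups did not overlap, with a log2 difference of -0.85 ± 0.18 (SE), adjusted p = 0.112 (limma). Among all genes 6.95% had groups that did not overlap, and among the 55 members these 2.

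The median log2 difference of the 55 members was 0.04, against -0.00 over all genes, and by family it was 0.16 for Sult, 0.07 for Ugt and -0.03 for Gst. The uncalled genes with the largest log2 difference of their families were Sult2a3 (-0.94, adjusted p = 0.790, limma), Ugt2b37 (0.59, adjusted p = 0.716, limma) and Gsta1 (-0.48, adjusted p = 0.809, limma). Sult5a1, which fell in WT/Floxed mice, was at 79.8, 59.5, 114 and 129 with saline and at 121, 138, 201 and 129 with LNA29, which overlap, with a log2 difference of 0.65 ± 0.26 (SE). Ugt1a5 was at 23757, 19101, 22981 and 18142 with saline and at 16529, 15987, 16266 and 19598 with LNA29, also with overlap (-0.29 ± 0.11, SE). Without LNA29 liver 3 neither gene was called, without LNA29 liver 2 or without saline liver 4 Gstt2 was not called, and without LNA29 liver 1 the count of higher members was 3.

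**Figure D4:**
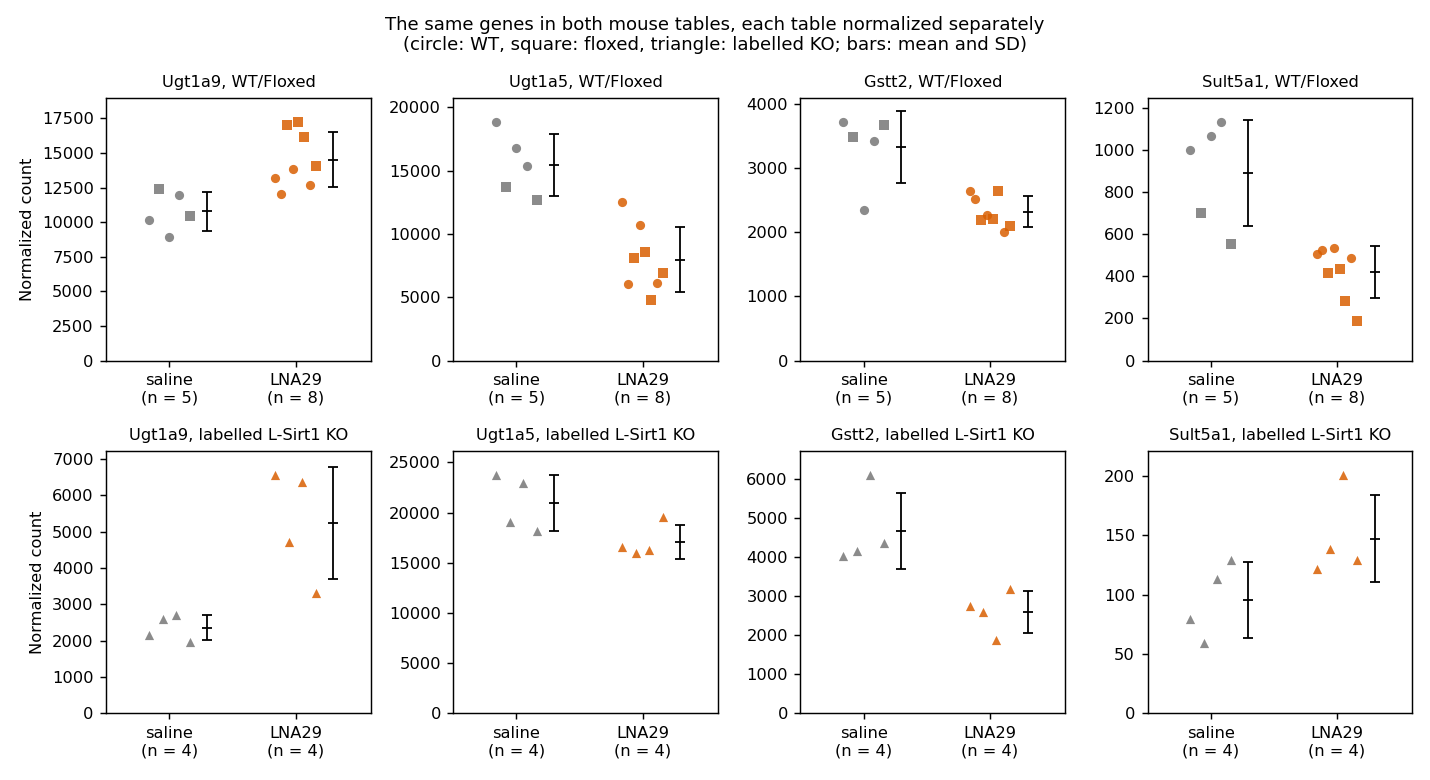
Normalized counts of Ugt1a9, Ugt1a5, Gstt2 and Sult5a1 in each liver of WT/Floxed mice (upper row) and mice labelled L-Sirt1 KO (lower row), saline in grey and LNA29 in orange, with bars for mean and SD and axes of their own because the tables were scaled separately. Ugt1a9 is higher and Gstt2 lower with LNA29 in both, while Sult5a1 is lower in the upper row and overlaps in the lower row.

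Whether the response to LNA29 differed between the genotype labels was tested as an interaction. For none of the 55 members was the adjusted p-value under 0.2 (limma), where 0.0449% of 15601 genes passed, and 6 members had an unadjusted p-value under 0.05, where 9.14% of genes did. The lowest adjusted p-value was that of Sult5a1, 0.205, for a difference of responses (KO-labelled minus WT/Floxed) of 1.75 ± 0.40 (SE) on the log2 scale. The other 5 with an unadjusted p-value under 0.05 were Ugt1a9 (0.68), Gstcd (0.69), Sult2a8 (0.61), Ugt1a5 (0.71) and Sult3a2 (1.59). With floxed mice alone in place of the WT/Floxed group no member had an adjusted p-value under 0.2 either (lowest 0.232, Sult2a8, limma), and 8 of 55 members had an unadjusted p-value under 0.05, where 10.8% of genes did. Ugt1a9 and Gstcd were no longer among them, and Sult2a1 (2.61), Sult2a2 (2.44), Sult2a5 (2.58) and Ugt8a (-1.43) were, at 1.15, 1.18, 1.24 and -0.97 with all WT/Floxed mice. Ugt8a passed the minimum mean in WT/Floxed mice only through the LNA29 livers, so that its value is given as a description. The log2 differences of 24 of the 55 members had opposite signs in the 2 genotypes. Opposite signs were not counted over all genes, so this is a description and no measure of a different response. Of the 21 fits that each left out 1 liver, 5 gave 1 member with an adjusted p-value under 0.2. A call in WT/Floxed mice without 1 in the labelled mice is therefore not shown to be a difference for any of these genes.

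The saline levels of some members were far apart between the 2 mouse tables. This was not tested, since each table was scaled on its own. Mean normalized counts with saline were 389 ± 105 (SD, n = 5) in WT/Floxed and 47.5 ± 26.04 (SD, n = 4) in labelled mice for Sult3a2, 890 ± 249 and 95.6 ± 31.7 for Sult5a1, 900 ± 175 and 92.2 ± 46.0 for Sult2a7, and 10778 ± 1406 and 2358 ± 346 for Ugt1a9. For Ugt1a5 they were 15479 ± 2452 and 20995 ± 2787. The floxed saline livers alone, of the same age as the labelled mice, had 560 and 409 for Sult3a2, 701 and 554 for Sult5a1 and 12381 and 10431 for Ugt1a9.

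Of the surrounding genes in the labelled mice, 1 of 13 genes of glutathione supply and turnover was lower, Oplah (-0.58). Among 19 regulators 1 was lower, the factor Cebpa (-0.49). Of 10 NRF2 readout genes 1 was higher, Srxn1 (0.47), and 1 was lower, the NADPH source G6pdx (-0.72, adjusted p = 0.0668, limma). The median of that list was -0.05. No gene of PAPS supply (10 tested), UDP-glucuronate supply (8), other conjugation (12), conjugate transport (10), microsomal glutathione transferases (7) or the CAR, PXR and AHR readout (11) was called. The male-biased genes Hsd3b5 (2.55) and Serpina1e (2.24) were higher, 2 of 11, and 1 of 15 female-biased genes was lower, Acot3 (-1.31). Among cell markers, 2 of 8 macrophage markers (Vsig4, -0.54, and Clec4f, -0.29) and 2 of 8 endothelial markers (Lyve1, -1.17, and Stab1, -0.53) were lower. The summed macrophage markers were 13371 to 16429 with LNA29 and 16491 to 20145 with saline, led by Clec4f, and the summed endothelial markers were 14559 to 15815 and 16095 to 17049. Neither sum overlapped between the groups, and the part of these cells in the results was not tested. Of 3 kidney or intestine markers tested Fabp2 was lower (-0.63).

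In rats, of 27 members tested 7 were lower and 2 higher in ZFR than in ZLR, and 18 were not called. Both higher genes, Sult4a1 and Gstm3, had a ZLR mean under 10 and passed the minimum mean of 10 only through ZFR, where they are high, so that their calls and tests are given as a description. Among all 8633 genes tested, 2.46% were called lower and 1.8% higher. The median log2 difference of the members was -0.23, against 0.07 over all genes. Groups did not overlap, with ZFR lower, for 11 of the 27 members, against 577 of all 8633 genes. In either direction 14.5% of all genes had no overlap. The 3 members without overlap and higher in ZFR were Sult4a1, Gstm3 and Sult2b1. All 3 had a ZLR mean under 10 and are given as a description. All 5 Ugt genes lay below 0, with a median of -0.75. No rat annotation was used, so sequence shared between rat copies was not looked at, and the split of reads between the Sult1c, Ugt2b and Gsta copies is uncertain.

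Among sulfotransferases, Sult1c2a and Sult1c3, both of the Sult1c group, were lower in ZFR. Sult1c3 counts were 596, 542, 766 and 610 in ZLR and 145, 87.4, 127 and 215 in ZFR, a log2 difference of -2.18 ± 0.24 (SE), adjusted p = 0.000994 (limma). Sult1c2a counts were 317, 352, 253 and 439 in ZLR and 74.9, 71.8, 14.6 and 91.8 in ZFR, a log2 difference of -2.65 ± 0.50 (SE), adjusted p = 0.0160 (limma). In both genes the groups are far from overlapping, in the deep as in the shallow ZLR libraries. Sult4a1, a sulfotransferase known mainly from brain, went the other way. Its counts were 0.728, 1.12, 0 and 0 in ZLR and 108, 48.2, 48.0 and 76.2 in ZFR. The 2 zeros are from the shallow libraries, where 3 reads, the limit that a count of 0 allows, would be 31.6 and 31.3 normalized counts, still below the lowest ZFR liver. ZLR 1 and ZLR 2 held 19 and 26 estimated reads of Sult4a1, and ZFR 1 to ZFR 4 held 3369, 41, 23 and 49. The log2 difference was 5.60 ± 0.58 (SE), adjusted p = 0.000694 (limma), and 5.13 without ZLR 3 and ZLR 4. Its size depends on the added count of 1, since the deep ZLR libraries are near 0, and with 10 added it was 2.87.

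Among glutathione transferases, Gstm3 was also low in ZLR, at 3.95, 2.85, 0 and 0, and at 64.8, 60.0, 33.4 and 37.3 in ZFR. Here the limit of 31.6 in the shallow libraries is close to the lowest ZFR liver. The log2 difference was 4.52 ± 0.70 (SE), adjusted p = 0.00627 (limma), and 3.46 without ZLR 3 and ZLR 4, with adjusted p = 0.000483. With 10 in place of 1 as the added count it was 2.31. Gsta5 counts were 657, 582, 558 and 543 in ZLR and 333, 242, 251 and 378 in ZFR, a log2 difference of -0.98 ± 0.15 (SE), adjusted p = 0.00676 (limma). Gsta2 counts were 765, 573, 811 and 501 in ZLR and 375, 212, 401 and 291 in ZFR, a log2 difference of -1.06 ± 0.22 (SE), adjusted p = 0.0280 (limma). The symbol Gsta2 was thus called lower in LNA29-treated WT/Floxed mice and in ZFR, and it is the only symbol called in both species. Gstm7 differed by -0.46 ± 0.11 (SE), adjusted p = 0.0445 (limma), with 1493, 1347, 1562 and 1249 in ZLR and 956, 1189, 1002 and 967 in ZFR, and was called in 2 of the 8 fits that each left out 1 library. Over the same 8 fits Gsta2 was called in 4 (lost without ZFR 2, ZFR 4, ZLR 1 or ZLR 3, with adjusted p-values up to 0.0846, limma), Gstm3 in 6, and Gsta5 and the 3 Sult genes in all 8.

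Among glucuronosyltransferases, Ugt2b35 counts were 1316, 1425, 1290 and 1323 in ZLR and 772, 675, 855 and 907 in ZFR, a log2 difference of -0.75 ± 0.11 (SE), adjusted p = 0.00392 (limma). Ugt2b10 counts were 673, 634, 599 and 608 in ZLR and 400, 385, 249 and 425 in ZFR, a log2 difference of -0.81 ± 0.16 (SE), adjusted p = 0.0214 (limma). The ZLR livers were within a narrow range for both, above every ZFR liver. Ugt2b35 was called in all 8 fits that left out 1 library, and Ugt2b10 in 5 (lost without ZFR 2, ZLR 1 or ZLR 2, with adjusted p-values up to 0.0587, limma). Ugt2b37, with the highest counts of the rat Ugt genes, was not called (7012 ± 623 in ZLR, 5968 ± 383 in ZFR, SD, n = 4 each). The uncalled genes with the largest log2 difference of their families were Sult2b1, a cholesterol sulfotransferase (2.09, adjusted p = 0.237, limma), Ugt1a5 (-0.75, adjusted p = 0.149, limma) and Gsta3 (1.69, adjusted p = 0.159, limma). Sult2b1 had a mean of 4.57 in ZLR and 16.6 in ZFR. It passed the minimum mean of 10 only through ZFR, so that its test is given as a description. Its count of 0 in ZLR 4 allows up to 31.3 normalized counts. In both Ugt1a5 and Gsta3, ZLR 1 stood apart from the other lean livers, with 1630 of Ugt1a5 against 725 to 746 in the others and 63.4 of Gsta3 against 7.50 to 16.6.

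**Figure D5:**
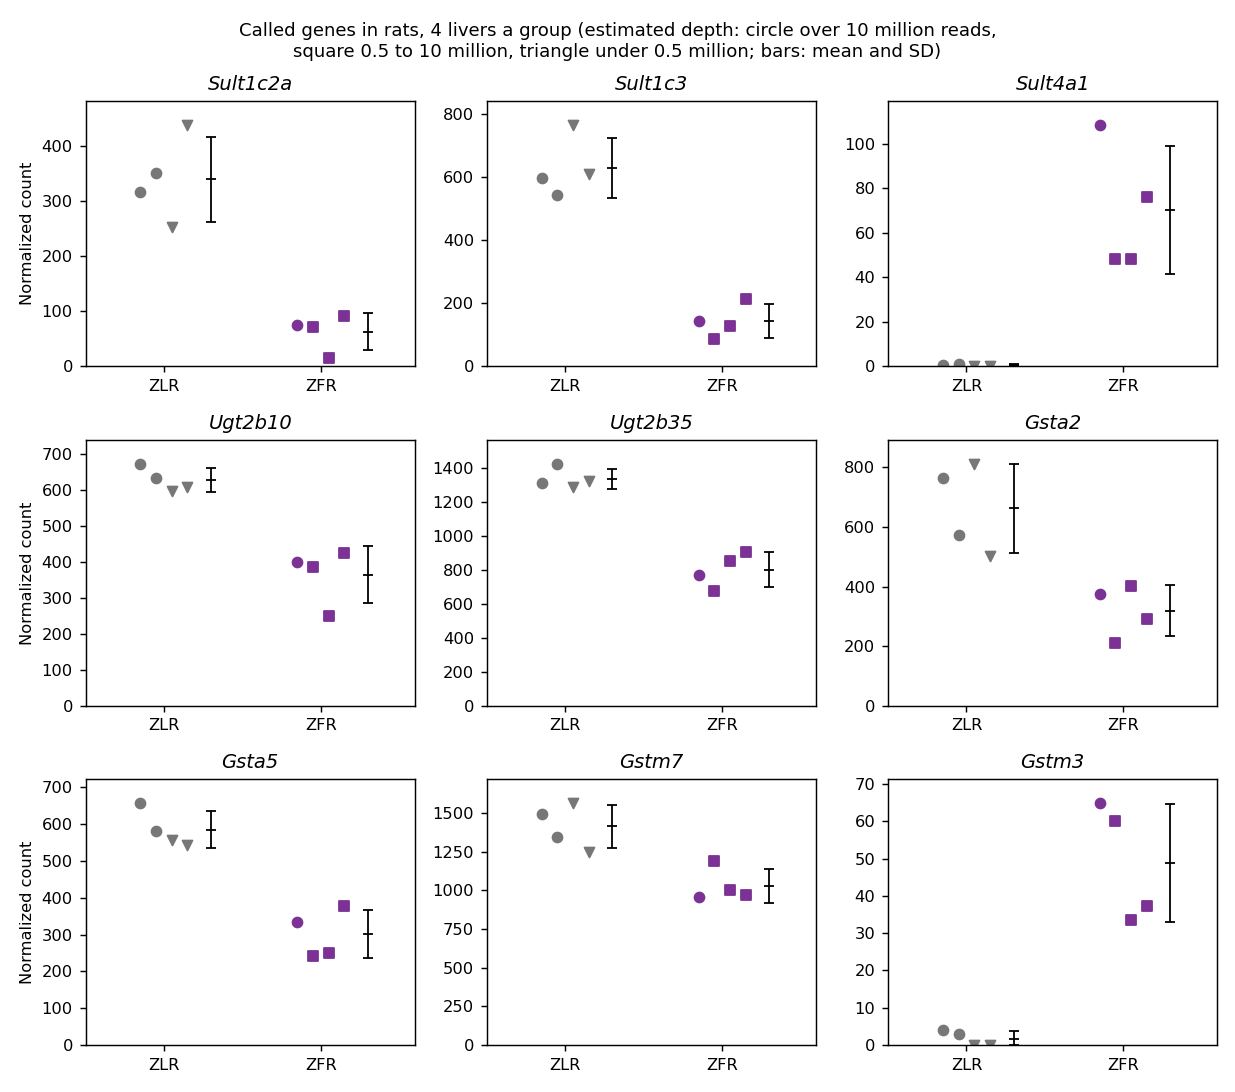
Normalized counts of the 9 called genes in each ZLR (grey) and ZFR (purple) liver, with circles for the 3 deepest libraries, triangles for the shallow libraries ZLR 3 and ZLR 4 and squares for the rest, and bars for mean and SD. The 4 ZLR and 4 ZFR livers do not overlap in any of the 9, and Sult4a1 and Gstm3 are near 0 in ZLR 1 and ZLR 2 and at 0 in ZLR 3 and ZLR 4, where 3 reads would be 31.6 and 31.3.

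All 9 called genes had the same direction on both flow cells (2 ZLR and 2 ZFR livers each), and without ZLR 3 and ZLR 4 together 8 of the 9 stayed called, with 10 members called in all and a median log2 difference of -0.26 over the members, where 5.86% of all genes were called. Gstm7 was the gene lost (-0.47, adjusted p = 0.0712, limma). The other lower genes were then at -2.05 for Sult1c3, -2.65 for Sult1c2a, -1.06 for Gsta5, -1.09 for Gsta2, -0.78 for Ugt2b35 and -0.87 for Ugt2b10, with adjusted p-values from 0.00515 to 0.0434 (limma). The surrounding genes and markers below were not fitted without these libraries. Without ZLR 1, 4 were called higher and 4 lower. Without ZFR 1 or without ZFR 2, 1 was called higher, since Gstm3 was lost (adjusted p = 0.0543 and 0.0507, limma).

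Among the surrounding genes in ZFR, 1 of 8 genes of glutathione supply and turnover was lower, Cbs of cysteine supply (-0.69), and 4 of the 8 lay above 0. Of 10 other conjugating enzymes 1 was lower, the methyltransferase Inmt (-3.74, adjusted p = 0.0343, limma). Of 8 conjugate transporters 2 were lower, the carriers Slc10a1 (-0.94) and Slco1a4 (-2.35). Of 17 regulators 2 were lower, CAR itself (Nr1i3, -1.63, adjusted p = 0.0465, limma) and Foxa1 (-1.67). Of 7 CAR, PXR and AHR readout genes 2 were lower, Cyp1a2 (-1.39) and Cyp3a23/3a1 (-1.41), while 4 of the 7 lay above 0, with a list median of 0.09. Of 6 NRF2 readout genes 1 was higher, Me1 (1.81), which also serves lipogenesis. Of 7 male-biased genes 4 were lower, among them Cyp2c11 (-2.33), Cyp7b1 (-2.01) and Hsd3b5 (-1.09), and of 6 female-biased genes 1 was lower, Hao2 (-2.33). No gene of PAPS supply (6 tested), UDP-glucuronate supply (8) or microsomal glutathione transferases (6) was called, with medians of 0.07, 0.00 and 0.13. Their summed counts were lower in ZFR without overlap, although 4 of 6, 4 of 8 and 4 of 6 genes tested lay above 0. For PAPS and sulfate supply, led by Tst, the sums were 1546 to 1710 against 1735 to 2070 in ZLR. For UDP-glucuronate supply, led by Ugp2, they were 752 to 941 against 995 to 1133. For microsomal glutathione transferases, led by Mgst1, they were 3853 to 4133 against 4312 to 5473. Summed conjugate transporters were 2494 to 3370 against 4243 to 5047. Summed NRF2 readout genes were higher, 861 to 1058 against 711 to 840.

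Most pericentral markers tested were lower in ZFR. Of 6 pericentral markers tested 4 were lower, among them Oat (-1.41), Cyp1a2 and Rgn (-1.33), with a median of -1.21, and their summed count was 3025 to 5846 in ZFR and 7232 to 12839 in ZLR, led by Cyp2e1. Of 10 periportal markers, led by Ass1, 2 were lower (Hal, -1.32, and Cyp2f4, -0.86) and 1 was higher, 4 of the 10 lay above 0, the median was -0.29, and the summed count was 12136 to 13915 in ZFR and 11664 to 15264 in ZLR. Of 7 hepatocyte markers 3 were lower (Cps1, -0.58, Ttr, -0.43, and Apob, -0.39), with a summed count of 193505 to 289355 in ZFR and 242806 to 308307 in ZLR. Of 7 endothelial markers Stab2 was higher (1.16). None of 8 macrophage, 6 stellate cell, 4 cholangiocyte or 1 red blood cell markers tested was called, and the 1 acinar marker tested, Cela1, was lower (-2.18), the summed acinar markers being 4.18 to 10.6 in ZFR and 15.5 to 41.8 in ZLR. The summed stellate cell markers, led by Lrat, were 246 to 350.0 in ZFR and 188 to 226 in ZLR and did not overlap, with a median log2 difference of 0.25. The part of hepatocyte zonation and of stellate cells in the Sult, Ugt and Gst differences was not tested.

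BT2 gave no call in the families. None of the 26 members had an adjusted p-value under 0.05, as was the case for 0% of the 8405 genes tested, and 1 member, Ugt2a1, had an unadjusted p-value under 0.05, against 3.95% of all genes. No member had groups that did not overlap, against 2.96% of all genes. The median log2 difference of the members was -0.01. Ugt2a1 was at 132 ± 14.3 (SD, n = 4) with vehicle and 191 ± 54.1 with BT2, a log2 difference of 0.48, adjusted p = 0.898 (limma). The other uncalled genes with the largest differences were Sult1c2a (-0.54) and Gsta3 (0.79), each with adjusted p = 0.898 (limma). For Sult1c3, the 95% interval of the difference ran from -0.94 to 0.57, and for Gsta2 from -0.42 to 0.58. No surrounding gene on any list was called.

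The vehicle and BT2 livers, all from obese rats of 3 months, give a second view of the 2 genes that were low in ZLR, on a table scaled separately and at another age. Gstm3 was at 1.83, 4.03, 6.42 and 0 with vehicle and at 0, 2.67, 1.34 and 0 with BT2, against 33.4 to 64.8 in the ZFR of 5.5 months, and with a mean under 10 it was not tested there. The zeros are from shallow libraries, where 3 reads would be 31.0 normalized counts in vehicle liver 4, 10.7 in BT2 liver 1 and 16.3 in BT2 liver 4, and the limit in vehicle liver 4 is close to the lowest of the older ZFR. Sult4a1 was at 37.8, 10.7, 60.5 and 0 with vehicle and at 3.56, 9.34, 33.5 and 16.3 with BT2, the zero again from vehicle liver 4 with the same limit, a spread that runs from 1 to 66 estimated reads where the gene was seen. Sult1c3 was at 148, 229, 281 and 105 with vehicle and Sult1c2a at 71.3, 99.4, 89.8 and 92.9, in or near the range of the older ZFR and below the older ZLR. These levels are side by side and were not compared by a test.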

How the data were processed

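Livers were sequenced from polyA-selected libraries. Per the labels and the study's methods, the authors aligned the single-end reads (100 bases) with STAR, quantified genes with Salmon against mm10 or rn6 and divided the estimates by DESeq2 size factors in each of 4 tables, and the deposited values are this normalized signal (normalized counts), with no raw counts used here. Whole reads could not be recovered from it: 69.5% to 90.3% of low values per library were whole multiples of 1 read within 0.01. Depth was estimated from the value of 1 read, and limits from counts of 0 (3 reads) cover counting error only. All sample columns were mapped to a labelled sample (0 unmatched).

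In each table, 201 or 381 entries without a name and 130 or 4523 with a repeated name were left out, as were means under 10. limma (lmFit, eBayes with trend) was run on log2(normalized count + 1), which understates the change of low genes unless zeros of shallow libraries enter it. Named were all called members, the uncalled member with the largest difference in each family and comparison, the 2 most abundant members per kb of each mouse family, and up to 3 called genes per list. Members and lists were chosen with earlier results of these data known. Exon lengths, shared 100-base windows, 3′ UTRs, promoters and miRNAs were from the GRCm38 annotation and RefSeq tables (GRCm38.p6). All 56 mouse members were found in the annotation and 47 had a promoter. The values of 1 periportal marker are not reported here. Self-tests used simulated data. R 4.3.3, limma 3.58.1, Python 3.11.15, pandas 2.3.3, numpy 2.4.6, Biopython 1.88 and matplotlib 3.10.9 were used. Alternatives varied the added count, filter, scaling, weights, flow cell, background, criteria and libraries.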

Additional observations from a re-analysis of the deposited data

Results flagged for a closer look

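Of 94 groups of 4 to 10 livers of the named genes, 8 (8.51%) held 1 liver far from the others by Dixon's criterion, where chance gives about 1 in 20. In saline-treated WT/Floxed livers, Gstt2 was at 2346 in liver 3 against 3426 to 3722 in the others, Sult3a1 was at 9953 in liver 2 against 6774 to 7596, and Sult2a3 was at 969 in liver 1 against 19.9 to 173. In mice labelled L-Sirt1 KO, Gstt2 was at 6111 in saline liver 3 against 4028 to 4356, Sult2a3 was at 849 in LNA29 liver 1 against 19.5 to 67.8, and Ugt2b5 was at 52756 in LNA29 liver 3 against 41798 to 43483. In lean rats, Gsta3 was at 63.4 and Ugt1a5 at 1630 in ZLR 1, against 7.50 to 16.6 and 725 to 746 in the other 3.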

How the results depend on the processing

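Over the alternatives run, 215 of the values that answer a comparison stayed within the limits set for them and 39 moved, and of the values for called genes 399 stayed and 90 were no longer called, with none changing direction. In WT/Floxed mice (11 lower, 1 higher) sample quality weights gave 19 lower and 2 higher (8.27% of all genes called, against 4.35%), flow cell as a covariate 2 higher (4.24%), an adjusted p-value under 0.05 alone 7 lower and 0 higher (1.37%), WT mice alone 3 lower and 0 higher (0.555%), and floxed mice alone 2 higher (5.35%). Leaving out 1 liver gave 8 (without LNA29 liver 6) to 15 lower (without LNA29 liver 1), 1 to 2 higher, and medians from -0.23 to -0.16. In mice labelled L-Sirt1 KO (1 lower, 1 higher) quality weights gave 2 higher (5.06% of all genes, against 1.87%) and an adjusted p-value under 0.05 alone 0 and 0, and leaving out 1 liver gave 0 to 1 lower, 0 to 3 higher and medians from -0.03 to 0.06. In ZFR (7 lower, 2 higher) no minimum mean gave 3 lower (1.3% of all genes), TMM scaling 4 lower (2.86%), quality weights 5 higher (13.5% of all genes, against 4.25%), the 4 mouse criteria 11 lower and 1 higher (8.19%), precision weights 13 lower and 4 higher (1982 of 8633 genes called), and a minimum of 10 estimated reads in the shallowest library 1 higher with a median of -0.45 over 19 members (20.4% of 2041 genes). Leaving out 1 rat gave 4 to 7 lower, 1 to 4 higher and medians from -0.24 to -0.15. For BT2 all counts were 0, with medians from -0.08 to 0.03 on leaving out 1 rat. For the interaction, leaving out 1 liver gave 0 to 1 members. Except where fewer samples or genes were tested, the cause was not tested. The fits on WT or floxed mice alone and those on shallow rat libraries were chosen after seeing the data. Depth limits low values in the shallow rat libraries, where 3 reads in ZLR 3 come to 31.6 normalized counts.

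Replicate numbers were checked for a pairing of the samples: deviations of same-numbered livers correlated from -0.35 to 0.25 in WT/Floxed mice, -0.16 to 0.28 in labelled mice, 0.03 to 0.14 in ZFR and ZLR and -0.04 to 0.28 with BT2. The same-numbered control liver correlated best for 1 of 5 LNA29 livers in WT/Floxed mice and 1 of 4 in labelled mice. It did so for 2 of 4 ZFR livers and 3 of 4 BT2 livers. In rats the numbers also follow the flow cells. With a replicate block, 4 members were lower and 0 higher in WT/Floxed mice, 0 lower and 1 higher in labelled mice, 6 lower and 2 higher in ZFR, and 0 with BT2.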
